A study of Mus musculus with 6 samples.

Results

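The metallothioneins Mt1, Mt2, Mt3 and Mt4, the zinc-sensing transcription factor gene Mtf1 and 5 zinc transporter genes, Slc30a1, Slc39a1, Slc39a8, Slc39a10 and Slc39a14, were followed in ribosome-associated RNA after an injection of lipopolysaccharide (LPS), the endotoxin of Gram-negative bacteria. The genes were chosen by name: each member is the transcript cluster that carries its symbol in the authors' deposited comparison table, and if a symbol had several clusters the one with the highest mean was to be used. All 10 genes were found, each with exactly 1 cluster, among 27364 gene symbols and 34472 clusters. The group given LPS had 3 arrays, from mice injected with 5 mg/kg LPS for 24 h, and the group given saline had 3 arrays, from mice injected with saline for the same time. All mice of both groups carried the same transgene, in which the CD11b promoter, active in myeloid cells, drives the ribosomal protein RPL10a with a Flag and EGFP tag, and were 2 to 3 months old. Each array held RNA from a pool of 5 mice of both sexes, so the spread between arrays is a spread between pools. Ribosomes carrying the tag were pulled down with the mRNA they held (translating ribosome affinity purification), and 100 ng per array was hybridised to an Affymetrix whole-transcript mouse array. The sources used here do not name a tissue.

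Metallothioneins are small proteins, rich in cysteine, that bind zinc and copper and release them again. Mt1 and Mt2 are known to be induced by zinc, glucocorticoids and inflammatory cytokines in many cell types, and in brain they are best known from astrocytes. Mt3 is the form best known from brain, and Mt4 is known from stratified epithelium. Free zinc in the cell is sensed by MTF-1, the product of Mtf1, which binds metal response elements (MREs) in the promoters of Mt1, Mt2 and Slc30a1. Slc30a1 encodes ZnT1, which moves zinc out of the cell, whereas the Slc39a genes encode ZIP proteins, which bring zinc into the cytosol. Slc39a14 is known in mouse liver as the zinc importer induced by interleukin-6 in the acute phase.

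The 4 metallothionein genes lie side by side on mouse chromosome 8 in the order Mt4, Mt3, Mt2 and Mt1, all on the plus strand, with 41.9 kb between the first and the last RefSeq start site and 6.47 kb between those of Mt2 and Mt1 (GRCm38.p6). Their promoter sequences are shown because the values below set these 4 neighbours side by side. RefSeq promoter windows were found by symbol for 9 of the 10 genes, and Slc39a14 had no entry. Each line gives the 250 bases before the RefSeq start site, 5′ to 3′, with matches to the MRE core in capitals. The core was searched as TGCACNC or TGCGCNC on both strands.
Mt4 (chr8:94136954-94137203, plus strand): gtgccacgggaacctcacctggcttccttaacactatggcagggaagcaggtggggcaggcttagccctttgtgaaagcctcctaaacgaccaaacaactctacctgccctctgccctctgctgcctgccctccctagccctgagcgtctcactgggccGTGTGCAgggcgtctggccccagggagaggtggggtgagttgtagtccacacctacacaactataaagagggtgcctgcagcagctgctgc
Mt3 (chr8:94152357-94152606, plus strand): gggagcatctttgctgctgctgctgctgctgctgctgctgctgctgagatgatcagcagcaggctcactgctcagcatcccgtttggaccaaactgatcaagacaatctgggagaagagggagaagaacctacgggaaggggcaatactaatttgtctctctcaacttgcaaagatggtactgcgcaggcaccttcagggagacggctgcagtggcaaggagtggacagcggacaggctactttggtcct
Mt2 (chr8:94172368-94172617, plus strand): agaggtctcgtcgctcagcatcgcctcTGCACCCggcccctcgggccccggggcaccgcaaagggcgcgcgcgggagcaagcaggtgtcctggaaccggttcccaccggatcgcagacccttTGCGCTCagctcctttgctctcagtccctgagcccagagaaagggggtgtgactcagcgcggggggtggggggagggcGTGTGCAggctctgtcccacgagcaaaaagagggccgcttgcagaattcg
Mt1 (chr8:94178839-94179088, plus strand): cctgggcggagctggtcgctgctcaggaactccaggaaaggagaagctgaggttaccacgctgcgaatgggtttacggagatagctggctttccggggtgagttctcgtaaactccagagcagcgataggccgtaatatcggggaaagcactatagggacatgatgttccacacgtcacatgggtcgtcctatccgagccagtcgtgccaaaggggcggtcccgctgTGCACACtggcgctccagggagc
Mt2 held 3 separate MRE core matches in these 250 bases, beginning 223, 128 and 50 bases before the start site. Mt1 held 1, beginning 23 bases before it, Mt4 held 1 and Mt3 held 0. In the full windows of 300 bases, which run 50 bases past the start site, there were 4 matches in Mt2, 3 in Mt1, 1 in Mt3, 1 in Mt4 and 2 in Slc30a1. Of all 32841 windows of 300 bases, 25.7% held at least 1 match, 1.97% at least 3 and 0.518% at least 4. Mtf1, Slc39a1 and both windows of Slc39a10 held 0 matches at either length, and 1 of the 2 windows of Slc39a8 held 1 match in 250 bases. The TATAAA box, searched on the plus strand, was found in the 250 bases of Mt4 and in 7.59% of all windows of that length, and not in those of Mt1, Mt2 or Mt3. Mt2 also held 1 antioxidant response element (TGACNNNGC, both strands, found in 10.2% of windows), beginning 79 bases before the start site. That element was found once each in Slc30a1, in Slc39a1 and in the first window of Slc39a8. A match is a match of letters, not a measured binding site, and the window depends on the start site that RefSeq gives. For Mt1 that site may lie upstream of the start linked to its TATA box, so matches nearer that start may fall outside the 250 bases. The RefSeq span of the Mt1 gene also begins at 94178883, inside the window shown. Part of that window therefore lies within the annotated gene. The windows of Slc30a1 and, by its last bases, Slc39a1 also reach into the RefSeq spans of their genes. Both windows of Slc39a8 and 1 of the 2 of Slc39a10 lie wholly inside those spans.

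Values below are log2 signals, on which a step of 1 is a doubling. Differences are LPS minus saline with the moderated standard error (SE) of limma fitted over all 34472 clusters, with Benjamini-Hochberg adjustment over all of them and a threshold of 0.05. A signal depends on a gene's probes, so levels of different genes are not set against each other. The array medians over all clusters lay between 5.17 and 5.42 in LPS and between 5.15 and 5.35 in saline, and both arrays numbered 3 had the highest. The deviations of same-numbered arrays from their group means correlated by 0.273, 0.123 and 0.561 across clusters, so the numbers were treated as pairing the arrays in a second fit. This pairing was read from the same values that the second fit used. Arrays of different numbers were not compared in this way. Deviations from a group mean cancel in sum, so a match of the arrays numbered 3 by itself raises the other correlations. Whether the remaining arrays are paired by number was therefore not shown.

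None of the 10 genes passed the threshold, where 1 of all clusters did (0.0029%). The largest difference was that of Mt2, which was 2.43-fold higher after LPS. Mt1 was 1.61-fold higher, while Mt3 and Mt4, on the same stretch of chromosome, differed by -0.034 and -0.14 on the log2 scale. Of the transporters, Slc39a1 and Slc39a8 were higher and Slc30a1 and Slc39a10 lower in all 3 same-numbered pairs of arrays, each with a mean difference of under 0.5. In all, 6 members had a positive difference and 4 a negative one, with a median of 0.11, against a median of -0.0016 over all clusters. In each of the 10 genes the LPS and saline arrays overlapped, where 3.61% of all clusters had the 3 LPS arrays above the 3 saline arrays and 3.1% had them below. When the arrays were centred on their medians, Mt2, Slc39a1 and Slc39a8 had all LPS arrays above the saline arrays, as 2.92% of all clusters then did. The same 3 genes did so after repeated quantile normalization, where 3.72% of all clusters did. When the arrays were centred on ribosomal protein genes it was Mt1, Mt2 and Slc39a1, where 3.2% of all clusters did. Under these 3 scalings 0 members had the LPS arrays below the saline arrays, where 5.15%, 3.88% and 1.85% of all clusters did.

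**Figure D1:**
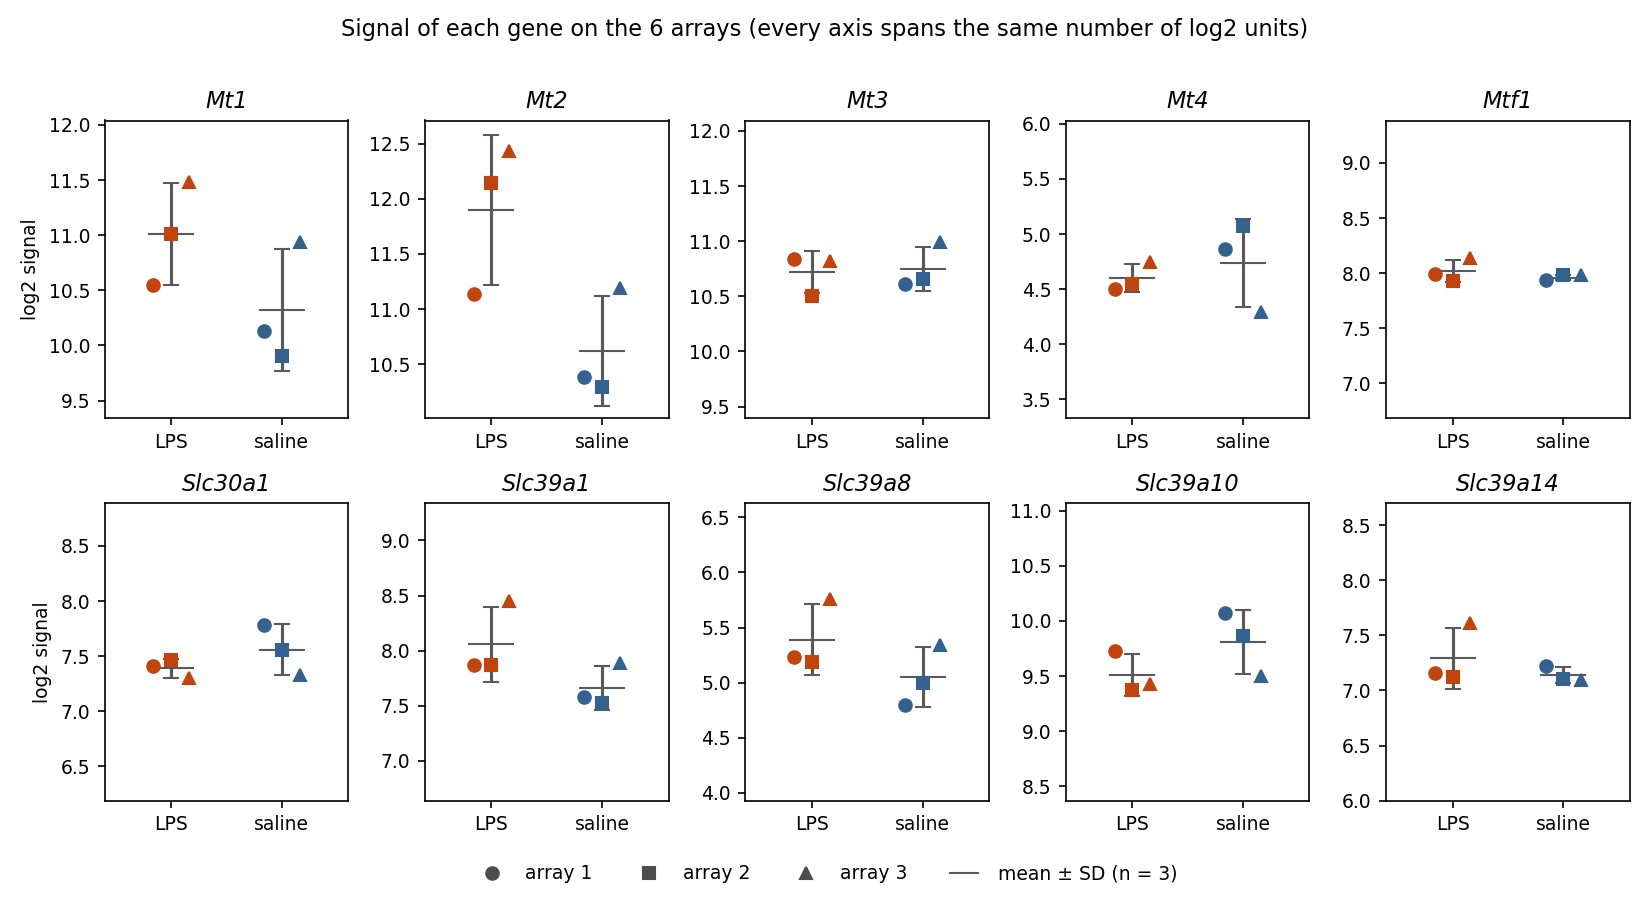
Log2 signal (vertical axis) of the 10 genes on the 3 LPS arrays (left, orange) and the 3 saline arrays (right, blue), with the marker shape giving the array number and the bar the mean ± SD of 3 arrays. Every panel spans the same number of log2 units. Mt2 shows the widest separation of means, 11.90 in LPS and 10.62 in saline, and its LPS 1 lies just under saline 3.

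Mt2 had log2 signals of 11.14, 12.14 and 12.43 in LPS 1, LPS 2 and LPS 3, against 10.38, 10.29 and 11.19 in saline 1, saline 2 and saline 3. LPS 2 and LPS 3 lay above every saline array, and LPS 1 lay 0.048 below saline 3, so the groups overlapped by that 1 array. The means were 11.90 ± 0.68 in LPS and 10.62 ± 0.50 in saline (SD, n = 3 each), a difference of 1.28 ± 0.36 SE with a 95% interval of 0.45 to 2.12 that is not adjusted for the number of clusters. Without a block it was the 1 member with an unadjusted limma p under 0.05 (0.00736), which 1.49% of all clusters had with a higher signal after LPS, and its limma adjusted p was 1.0. The difference lay at percentile 99.8 of all clusters. With the replicate number as a block it stayed at 1.28 with an SE of 0.21, and limma's unadjusted p was 0.000445 and its adjusted p 0.267. With that block 4 members had an unadjusted limma p under 0.05, all with a higher signal after LPS (3.32% of all clusters): Mt2, Mt1 (0.00454), Slc39a1 (0.0192) and Slc39a8 (0.0316). None had such a p with a lower signal (2.52% of all clusters). The limma adjusted p-values of the 4 ran from 0.267 to 0.805. All p-values with this block hold only if the numbers pair the arrays.

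Mt1 had signals of 10.55, 11.01 and 11.48 in the LPS arrays, against 10.13, 9.90 and 10.94 in the saline arrays, in the order of their numbers. Saline 3 lay above LPS 1, and every LPS array lay above saline 1 and saline 2. The means were 11.01 ± 0.46 in LPS and 10.32 ± 0.55 in saline (SD, n = 3 each), a difference of 0.69 ± 0.32 SE (95% interval -0.044 to 1.42, limma adjusted p = 1.0). With the replicate block the limma adjusted p was 0.572. Leaving out single arrays moved the difference between 0.45, without LPS 3, and 1.0, without saline 3.

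Mt3 had signals of 10.84, 10.50 and 10.82 in LPS, against 10.61, 10.66 and 10.99 in saline, in the order of the array numbers. The highest of the 6 arrays was saline 3 and the lowest was LPS 2, and the means of 10.72 and 10.75 lay within the SD of either group (0.19 and 0.20). The difference was -0.034 ± 0.18 SE, with a 95% interval of -0.44 to 0.37, so a change of up to 0.37 in either direction lies inside the interval. Mt4 had signals of 4.50, 4.55 and 4.75 in LPS, against 4.86, 5.07 and 4.29 in saline. These values lay below the array medians, a range in which RMA compresses differences, and the widest spread was that of saline, where saline 3 was the lowest of the 6 arrays. The difference was -0.14 ± 0.22 SE (95% interval -0.64 to 0.37), and it ran from -0.36 without saline 3 to 0.028 without saline 2. It was -0.44 without both arrays numbered 3 and -0.32 with array weights.

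How the metallothioneins differed from each other was measured within each array, where an offset shared by both genes cancels. The 3 pairs of genes were chosen after these values were seen. Mt2 minus Mt1 was 0.59, 1.13 and 0.95 in LPS 1 to LPS 3, against 0.24, 0.39 and 0.25 in saline 1 to saline 3. The 3 LPS values were all higher than the 3 saline values, and the means of 0.89 ± 0.27 and 0.30 ± 0.085 (SD, n = 3 each) differed by 0.60. Set against Mt1 in the same way, 0.104% of all other clusters had the LPS values above the saline values. Mt1 was itself higher after LPS, and subtracting it lowers this share. The share is therefore no measure of how rare the shift of Mt2 is. Mt2 minus Mt3 also parted the groups, with 0.30, 1.64 and 1.61 in LPS, against -0.23, -0.37 and 0.21 in saline, a difference of 1.32, and 2.84% of all other clusters did so against Mt3. Mt1 minus Mt3 overlapped, with -0.29, 0.51 and 0.66 in LPS, against -0.47, -0.77 and -0.045 in saline, a difference of 0.72. A two-sided exact permutation test over the arrays gave p = 0.1, 0.1 and 0.2 for the 3 pairs of genes, or 0.15, 0.15 and 0.2 after Benjamini-Hochberg adjustment over them, and 0.1 is the smallest p that 3 arrays against 3 allow.

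**Figure D2:**
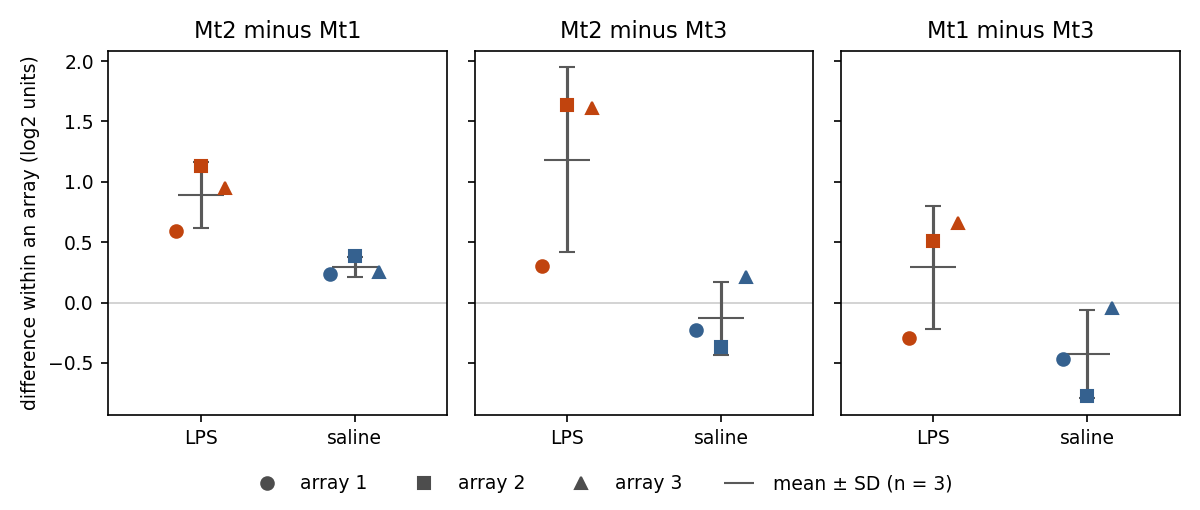
Difference in log2 signal between 2 metallothionein genes on the same array (vertical axis) for the 3 LPS arrays (left, orange) and the 3 saline arrays (right, blue), with marker shapes for the array number and bars for the mean ± SD of 3 arrays. Mt2 minus Mt1 lies between 0.59 and 1.13 in LPS and between 0.24 and 0.39 in saline, and the height of a panel says nothing of which gene is more abundant.

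Mtf1, whose protein drives the metal response of these promoters, had signals of 7.99, 7.93 and 8.14 in LPS, against 7.94, 7.98 and 7.98 in saline. The groups overlapped, and the difference was 0.058 ± 0.14 SE (95% interval -0.27 to 0.39). MTF-1 is known to be controlled by zinc binding to the protein, which RNA does not show. Slc30a1, the zinc exporter and a known MTF-1 target, had 7.41, 7.47 and 7.30 in LPS, against 7.78, 7.56 and 7.33 in saline. LPS was the lower array in each same-numbered pair, by 0.38, 0.083 and 0.03, and the difference was -0.16 ± 0.17 SE (95% interval -0.55 to 0.23). The difference of Slc30a1 was negative, with an interval that held both signs, and those of Mt1 and Mt2 were positive. None of the 3 passed, and whether MTF-1 had a part in their values was not tested.

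Slc39a1 encodes ZIP1, an importer of the plasma membrane. It had signals of 7.87, 7.87 and 8.45 in LPS, against 7.58, 7.53 and 7.89 in saline. Saline 3 lay above LPS 1 and LPS 2, by 0.023 over LPS 1, and the other saline arrays lay below all LPS arrays. The difference was 0.40 ± 0.21 SE (95% interval -0.082 to 0.87, limma adjusted p = 1.0, or 0.751 with the replicate block). The description of this cluster also names a pseudogene of Slc39a1, so its signal may hold both transcripts.

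Slc39a8 encodes ZIP8, which carries zinc, manganese and iron. It had 5.23, 5.19 and 5.76 in LPS, against 4.80, 5.00 and 5.34 in saline. These values lie near the array medians, and saline 3 lay above LPS 1 and LPS 2. The difference was 0.35 ± 0.22 SE (95% interval -0.15 to 0.85), and LPS was higher by 0.43, 0.20 and 0.42 in the same-numbered pairs.

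Slc39a14, the acute-phase importer ZIP14, had 7.16, 7.12 and 7.61 in LPS, against 7.22, 7.10 and 7.09 in saline. LPS 3 stood above the other 5 arrays, which lay between 7.09 and 7.22. The difference of 0.16 ± 0.18 SE (95% interval -0.25 to 0.57) shrank to 0.00037 when LPS 3 was left out and was -0.024 without either array numbered 3. Slc39a10 encodes ZIP10, a zinc importer of the plasma membrane. It had 9.73, 9.37 and 9.43 in LPS, against 10.07, 9.86 and 9.50 in saline. LPS 1 lay above saline 3, so the groups overlapped, and LPS was lower in the same-numbered pairs by 0.34, 0.48 and 0.071. The difference was -0.30 ± 0.20 SE (95% interval -0.75 to 0.15), at percentile 4.92 of all clusters.

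**Figure D3:**
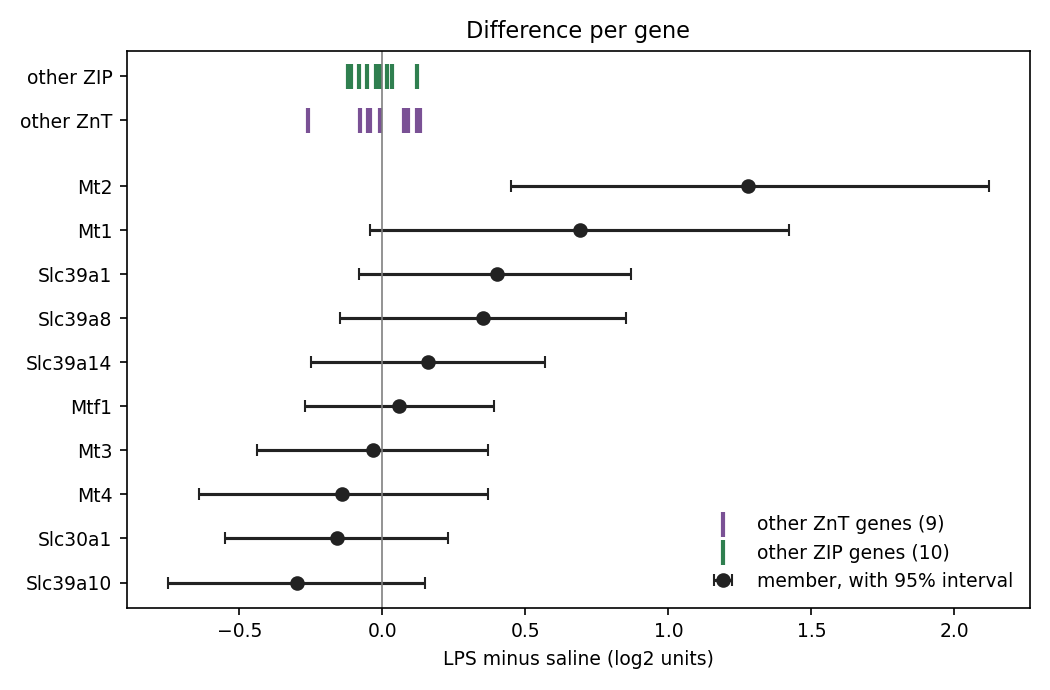
LPS minus saline difference in log2 units (horizontal axis) of the 10 genes as points with limma's 95% interval, from the fit without a replicate block and unadjusted for the number of clusters, and of the other ZnT and ZIP genes as ticks without intervals. The interval of Mt2, 0.45 to 2.12, is the 1 of the 10 that does not reach 0, and the ticks of the other transporters lie between -0.26 and 0.13.

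The other members of both transporter families had differences between -0.26 and 0.13. Of the 9 other ZnT genes 4 had a positive and 5 a negative difference, with a median of -0.0081, and none passed the threshold. Those furthest from 0 were Slc30a10, a manganese exporter, at -0.26 ± 0.29 SE, and Slc30a2 at 0.13 ± 0.14. The 3 LPS arrays of Slc30a2 lay above the saline arrays, as in 3.61% of all clusters. Its values lay below the array medians, where RMA compresses differences. Of the 10 other ZIP genes 3 had a positive and 7 a negative difference, with a median of -0.015 and a range of -0.12 to 0.12, and none passed. At the ends of that range were Slc39a2, at -0.12 ± 0.16 SE, and Slc39a4, the importer of zinc from food in the intestine, at 0.12 ± 0.20. The values of both also lay below the array medians, so their differences may be compressed too. For neither of the 2 families was there a member with an unadjusted limma p under 0.05, which 2.26% of all clusters had.

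Further groups touch the regulation of metallothioneins and copper, the other metal they bind. Of 14 measured copper genes 0 passed limma's threshold, 1 had an unadjusted p under 0.05 (1.49% of all clusters did with a higher signal after LPS) and the median difference was -0.079, and Cp, the copper-carrying ferroxidase of plasma, stood furthest from it at 1.64 ± 0.37 SE, followed by Steap4, a metalloreductase, at 0.59 ± 0.31. Of the copper genes, the 3 LPS arrays lay above the saline arrays in 1, Cp (3.61% of all clusters). They lay below in 1, Atp7b (3.1% of all clusters). Of 14 measured genes known to be induced by glucocorticoids 13 had a positive difference, and the median over the 14 was 0.78. In 9 the 3 LPS arrays lay above the saline arrays (3.61% of all clusters). An unadjusted limma p under 0.05 was found in 10, all with a higher signal (1.49% of all clusters), and 0 passed after adjustment. Plin4 and Cdkn1a had the largest differences, 1.96 ± 0.25 and 1.72 ± 0.39 SE. Of 12 genes of IL-6 type cytokine and STAT3 signalling 11 had a positive difference, 6 had the LPS arrays above the saline arrays (3.61% of all clusters), 4 had an unadjusted limma p under 0.05 with a higher signal (1.49% of all clusters) and 0 passed after adjustment, with a median of 0.37. Osmr, a receptor subunit for oncostatin M, and Bcl3 had the largest, 1.46 ± 0.44 and 1.07 ± 0.34 SE. These groups were listed with earlier results of these data known, so their counts are not independent findings. Whether these groups have a part in the values of Mt1 and Mt2 was not tested.

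Differences between arrays of the same number set aside what such arrays share. LPS was higher in all 3 pairs for 4 of the 10 genes, where 13.1% of all clusters were, and lower in all 3 for 2, where 13.5% of all clusters were. For Mt2 the pair differences were 0.77, 1.84 and 1.24, and for Mt1 they were 0.42, 1.11 and 0.54. In both genes pair 2 had the largest difference and pair 1 the smallest. Arrays numbered 3 stood above the mean of arrays 1 and 2 by 0.79 in LPS and 0.86 in saline for Mt2 and by 0.70 in LPS and 0.92 in saline for Mt1, where the median over all clusters was 0.20 in LPS and 0.17 in saline. Without both arrays numbered 3 the difference was 1.31 for Mt2 and 0.76 for Mt1. The 2 remaining LPS arrays then lay above the 2 remaining saline arrays in 4 members, Mt1, Mt2, Slc39a1 and Slc39a8, and below them in 3, Mt4, Slc30a1 and Slc39a10, where 16.0% of all clusters had them above and 17.8% below.

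**Figure D4:**
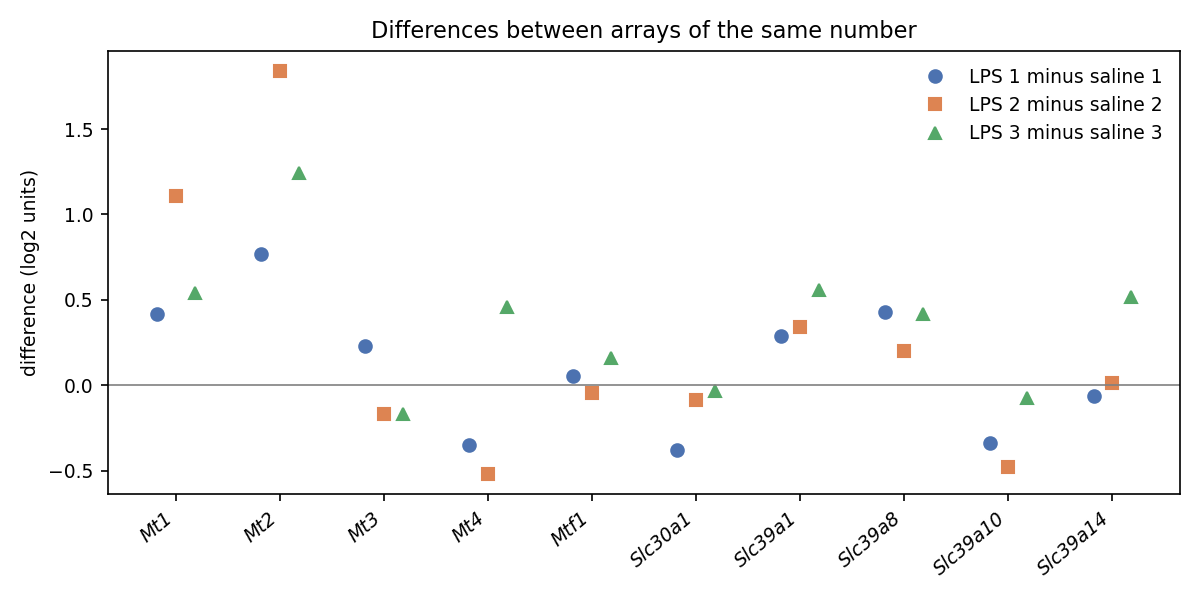
Difference in log2 signal between the LPS and the saline array of the same number (vertical axis) for the 10 genes (horizontal axis), with 1 marker for each of the 3 numbers. Mt1, Mt2, Slc39a1 and Slc39a8 lie above 0 at all 3 numbers, Slc30a1 and Slc39a10 lie below it, and the other genes have both signs.

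The authors' deposited table gives other sizes for some of these genes, since its group averages are bi-weight means that give less weight to a value apart from the others. For Mt2 the authors' deposited table has averages of 12.13 in LPS and 10.34 in saline, a fold of 3.46 and a p of 0.0567, against the 2.43-fold of plain means. For Mt1 the authors' deposited table has a fold of 1.83 with p = 0.172, and for Slc39a14 a fold of 1.03. For Mt3 the authors' deposited table has averages of 10.83 in LPS and 10.64 in saline, so its difference there is 0.19 while that of the plain means is -0.034. The adjusted p in the authors' deposited table is 1.0 for each of the 10 genes.

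The genes whose 6 values were most like those of Mt2 were Irgm1, an interferon-induced GTPase (Pearson r = 0.9963), Srgn, the proteoglycan serglycin (0.9935), Errfi1, an inhibitor of the EGF receptor (0.9917), Gm7676 (0.9902) and Ddx39b, an RNA helicase (0.9898), over 6 arrays and 4733 candidate genes. Mt1 came at rank 81 with 0.9472. Irgm1 had 5.90, 7.17 and 7.51 in LPS, against 4.65, 4.50 and 5.64 in saline, with LPS 2 and LPS 3 highest, as in Mt2. For Slc39a14 the most alike among 4734 candidates were Ovol3 (0.9825), Tnfaip3, which encodes the NF-kB inhibitor A20 (0.9758), Hrct1 (0.9611), Gipr (0.9582) and 4930553J12Rik (0.9409). Tnfaip3 had 6.48, 6.31 and 7.52 in LPS, against 6.71, 6.56 and 6.43 in saline, so that LPS 3 stood apart there as well. These correlations are descriptions, since the arrays fall into 2 treatments and share the offset of the arrays numbered 3.

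Markers of cell types were read on the same arrays, since the purified RNA may hold RNA of cells other than those with the tag. Neuron markers also gave signal, with means over 9 genes of 10.51 to 10.66 in LPS and 10.53 to 10.70 in saline. The mean signal over 10 astrocyte markers ran from 8.40 to 8.61 in LPS and from 8.17 to 8.36 in saline, and 8 of the 10 had a positive difference with a median of 0.12. Gfap, the filament protein of astrocytes, stood out with 9.23, 9.77 and 10.35 in LPS, against 8.41, 8.58 and 8.81 in saline, and the other 9 differed by between -0.19 and 0.39. The mean over 12 microglia markers ran from 6.25 to 6.62 in LPS and from 6.61 to 6.85 in saline, and 11 of the 12 had a negative difference with a median of -0.27. In 3 of them, P2ry12, Siglech and Fcrls, the LPS arrays lay below the saline arrays, as in 3.1% of all clusters. Their differences were -1.24 ± 0.34, -0.94 ± 0.24 and -0.70 ± 0.20 SE. Itgam, the gene of CD11b, was the 1 with a positive difference (0.35 ± 0.17 SE). Its LPS arrays lay above the saline arrays, as in 3.61% of all clusters. The mean over 10 neutrophil markers ran from 4.31 to 4.94 in LPS and from 4.01 to 4.31 in saline, and 9 of the 10 had a positive difference, with a median of 0.36. S100a8 and S100a9 had the largest, 1.47 ± 0.44 and 1.22 ± 0.24 SE, and Ly6g, a surface marker of neutrophils, was the 1 with a negative difference, -0.27 ± 0.26. The means over the neutrophil markers lay below the array medians, where RMA compresses differences. The LPS and saline arrays overlapped in 9 of these 10 genes, S100a8 among them, and in 32159 of all 34472 clusters. No marker of any of the cell types passed limma's threshold. Median differences were -0.068 over 9 neuron markers, -0.092 over 10 oligodendrocyte, 0.15 over 10 endothelial, -0.043 over 8 choroid plexus, 0.14 over 7 blood monocyte and 0.06 over 7 hepatocyte markers. No value is 0 on this scale, and the part of these cells in the values of Mt1, Mt2 and the transporters was not tested. In bulk RNA such as this, fewer cells of a type and less RNA per cell cannot be told apart.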

How the data were processed

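Messenger RNA from 6 pools of mice was measured on 6 arrays, 3 after LPS and 3 after saline, as the labels group them. The authors made the deposited log2 signals with RMA in Affymetrix Expression Console and used Transcriptome Analysis Console, per the submitters' processing notes, in version 3.0 per the series' design text. In RMA the background is removed, arrays are brought to one distribution and probes are summarised per cluster, which compresses differences of dim clusters. The sources used here name no genome build. The authors' deposited comparison table gives bi-weight log2 averages, a signed linear fold, a p-value and an adjusted p-value, per the file headers. For 99.9971% of clusters a plain test with equal variances came within 0.001 of the deposited p-value.

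Differences came from limma 3.58.1 in R 4.3.3 (lmFit, eBayes, group as the only term, two-sided) over the 34472 clusters of the comparison table; the fit was tested on simulated data. The other 6873 clusters of the value table entered 1 alternative. Exact permutation tests used scipy 1.17.1. The members and lists were chosen with earlier results of these data known, and the within-array differences between metallothioneins after these values were seen. All 10 members are named; of the other lists, those past the threshold and the 2 with the largest absolute difference; and, by Pearson r, the 5 genes most like Mt2 and the 5 most like Slc39a14, among clusters with 1 symbol, a mean above the median and an SD of at least 0.3. Where a listed symbol had several clusters, the brightest was used. Irgm1, Tnfaip3, Itgam, P2ry12, Siglech, Fcrls, Gfap, S100a8, S100a9 and Ly6g were given values after these were seen. Commd1, Fkbp5, Map2, Chil3 and Apoa2 had no cluster with their symbol. Same-numbered arrays were taken as pairs because all 3 correlations of their deviations exceeded 0.1. These correlations depend on each other, and no label states the meaning of a number. The number of arrays limits the precision.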

Additional observations from a re-analysis of the deposited data

How the results depend on the processing

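Of 158 values of single members under 16 alternatives, 153 kept their direction and stayed short of the threshold, and 5 turned their sign: Mt3 was 0.083 without saline 3, 0.077 without LPS 2 and 0.033 without both arrays numbered 3, Mt4 was 0.028 without saline 2, and Slc39a14 was -0.024 without both arrays numbered 3. With 1 array left out, Mt2 ran from 1.02 to 1.66, Mt1 from 0.45 to 1.0, Slc39a1 from 0.20 to 0.51, Slc39a8 from 0.16 to 0.49, Slc39a10 from -0.45 to -0.17, Slc30a1 from -0.28 to -0.049, Slc39a14 from 0.00037 to 0.25, Mtf1 from 4.8e-05 to 0.10, Mt3 from -0.11 to 0.083 and Mt4 from -0.36 to 0.028. The count of members past the threshold was 0 under all 16, and the lowest limma adjusted p of a member was 0.162, that of Mt2 with array weights. The count of all clusters past the threshold was 1, and it was 3 with the replicate block, 2 without both arrays numbered 3, 2 with arrays centred on ribosomal protein genes, 22 with array weights, 0 over all clusters of the value table, 0 with the unmoderated test and 0 to 12 with 1 array left out. The replicate block changed no call of a member. The LPS and saline arrays did not overlap in 3 members, against 0 on the deposited scale, with repeated quantile normalization (Mt2, Slc39a1 and Slc39a8), with arrays centred on their medians (the same 3 genes) and with arrays centred on ribosomal protein genes (Mt1, Mt2 and Slc39a1, 3 members), all with LPS higher, where 3.72%, 2.92% and 3.2% of all clusters had the LPS arrays above the saline arrays. The cause of these changes was not tested. Mt4 and Slc39a8 were too dim for the alternative over brighter clusters, and no symbol had another cluster to put in its place.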
